A study of Mus musculus with 24 samples.

Results

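Histone and DNA modifying enzymes were taken as the genes whose symbol starts with Dnmt, Tet, Kat, Hdac, Sirt, Kmt, Setd, Kdm or Prmt followed by a digit, without Kdm5c, Kdm5d and Kdm6a. The rule found 72 of the 18194 genes that had a probe set naming 1 gene, and it used no measured value. They comprised 4 Dnmt, 3 Tet, 8 Kat, 11 Hdac, 7 Sirt, 16 Kmt or Setd, 15 Kdm and 8 Prmt genes. Testing was limited to genes above the array median on at least 2 arrays, which left 70 of the 72 members and 12378 genes in all. Dnmt3l, a cofactor of the de novo DNA methyltransferases without catalytic activity, did not pass at 4.56 to 5.50 log2 units, and neither did the histone demethylase gene Kdm4d at 4.25 to 6.86. The choice goes by symbol, so it takes in enzymes best known for substrates other than histones, such as Setd3 (actin) and the mitochondrial sirtuins Sirt3, Sirt4 and Sirt5, and it leaves out histone methyltransferases with other names.

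The 24 arrays measured messenger RNA in neuron cultures from C57Bl/6 littermate embryos at embryonic day 14 that were Npas4 knockout (KO) or wild type (WT). Npas4 encodes a transcription factor that neuronal activity induces. The medial ganglionic eminence (MGE) is a birthplace of inhibitory interneurons, and the cortex (CTX) holds mainly excitatory cells at this stage. Neurons of each origin were kept for 10 days in culture. All cultures were silenced overnight with tetrodotoxin and AP-5, which block sodium channels and NMDA receptors, before 55 mM KCl depolarized them for 0, 1 or 6 h. The 12 groups were MGE KO, MGE WT, CTX KO and CTX WT, each at 0, 1 and 6 h, with 2 arrays a group. Cultures at 0 h were therefore silenced and not unmanipulated neurons. Nothing in the labels says that the 2 arrays of a group came from separate cultures or embryos, so the p-values measure the spread between these arrays, which may be technical.

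The enzymes add or remove chemical groups on chromatin. Dnmt enzymes methylate cytosine in DNA and Tet enzymes oxidize that mark. Kat enzymes acetylate lysines, and Hdac and Sirt enzymes remove acyl groups. Kmt, Prmt and most Setd enzymes methylate lysines or arginines, and Kdm enzymes remove methyl groups from lysines. In neurons several are known as part of the response to activity: class IIa deacetylases such as Hdac4 and Hdac5 move between cytoplasm and nucleus with calcium signals, and Tet enzymes act in activity-linked DNA demethylation.

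Values below are log2 intensities, and a change is a difference of log2 group means with its standard error (SE) from limma, 2 arrays a group. A gene counted as called where its adjusted p over the 12378 genes was under 0.05. Npas4, the targeted gene, was at 6.80 to 7.82 in depolarized KO cultures, against 8.59 to 12.04 in depolarized WT cultures. Array medians lay between 6.84 and 6.92. The 2 arrays of MGE WT at 0 h stood apart from each other: their correlation over genes was 0.951, against 0.965 to 0.992 in the other 11 groups, and 12 of the 70 members differed over 2-fold between them, against 0 to 5 in the other groups. In replicate 2 of that group Tet2, Kdm3b, Kdm7a, Tet1 and Kmt2c were lower by 1.59 to 3.37 log2 units than in replicate 1. Where a member's 6 h call was lost when a single array of its culture was left out, that is given beside it. A list of 11 markers of MGE-derived inhibitory neurons summed to between 66528 and 84320 intensity units on the MGE arrays, against 10315 to 22474 on the CTX arrays. Of 9 markers of excitatory cortical neurons 7 were below the array median on both arrays of every MGE group and none in a CTX group.

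Of the 70 tested members, 2 were called higher at 6 h in all 4 cultures and 5 lower, where 2.2% and 7.24% of all genes were. The promoters of those with an entry that changed most are printed, ranked by their smallest change. They show which letters bound by activity-regulated factors these genes carry. The genes were Sirt5, Dnmt3b, Setd4 and Prmt3, which fell, and Hdac5, which rose. Each sequence runs from 250 bases before to 50 bases after the start of transcription, from RefSeq, build GRCm38.p6, in the direction of transcription, and 60 of the 72 members had an entry. Kdm2a had none. Capitals mark, on either strand, the cAMP response element (CRE) TGACGTCA, the shorter CRE core TGACG, which also lies within the CRE, the AP-1 site TGACTCA and TCGTG, the core that NPAS4 binds with an ARNT partner.

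Sirt5, GRCm38.p6 chr13:43365285-43365584, forward strand: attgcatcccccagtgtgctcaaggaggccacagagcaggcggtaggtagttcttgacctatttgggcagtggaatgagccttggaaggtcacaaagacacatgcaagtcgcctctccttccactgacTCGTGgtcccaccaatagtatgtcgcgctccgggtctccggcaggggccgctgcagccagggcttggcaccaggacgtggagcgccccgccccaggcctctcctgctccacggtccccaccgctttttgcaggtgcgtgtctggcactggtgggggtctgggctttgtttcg

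Dnmt3b, GRCm38.p6 chr2:153649199-153649498, forward strand: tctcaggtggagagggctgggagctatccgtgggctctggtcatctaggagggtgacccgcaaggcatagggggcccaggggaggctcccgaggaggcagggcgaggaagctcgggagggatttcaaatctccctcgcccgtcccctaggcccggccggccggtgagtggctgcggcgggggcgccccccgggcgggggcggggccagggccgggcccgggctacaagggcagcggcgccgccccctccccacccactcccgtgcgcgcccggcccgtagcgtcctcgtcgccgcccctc

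Setd4, GRCm38.p6 chr16:93603766-93604065, reverse strand: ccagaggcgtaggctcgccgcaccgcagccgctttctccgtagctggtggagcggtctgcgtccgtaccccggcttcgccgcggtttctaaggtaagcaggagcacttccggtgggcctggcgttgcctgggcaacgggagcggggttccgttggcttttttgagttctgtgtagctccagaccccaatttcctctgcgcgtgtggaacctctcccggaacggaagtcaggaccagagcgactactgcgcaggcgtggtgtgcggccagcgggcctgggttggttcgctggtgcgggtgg

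Prmt3, GRCm38.p6 chr7:49778108-49778407, forward strand: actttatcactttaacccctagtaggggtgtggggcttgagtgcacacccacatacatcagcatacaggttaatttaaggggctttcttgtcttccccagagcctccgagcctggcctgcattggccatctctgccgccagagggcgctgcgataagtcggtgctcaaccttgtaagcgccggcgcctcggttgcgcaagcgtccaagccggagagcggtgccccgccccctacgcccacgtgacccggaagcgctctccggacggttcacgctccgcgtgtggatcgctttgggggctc

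Hdac5, GRCm38.p6 chr11:102230123-102230422, reverse strand: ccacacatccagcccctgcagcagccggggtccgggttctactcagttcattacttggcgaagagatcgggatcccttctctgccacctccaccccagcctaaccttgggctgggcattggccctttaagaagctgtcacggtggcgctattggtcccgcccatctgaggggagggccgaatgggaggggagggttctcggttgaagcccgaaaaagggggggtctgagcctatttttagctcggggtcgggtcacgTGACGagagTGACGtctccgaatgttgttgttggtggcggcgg

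Sirt5 held 1 TCGTG core before the start and Hdac5 held 2 shorter CRE cores after it, and the windows of Dnmt3b, Setd4 and Prmt3 held none of these letters. Of all 32851 promoters listed, 1.79% held the CRE, 20.8% the shorter core, 5.2% the AP-1 site and 16.0% the TCGTG core. Among the 87 promoters of the members the shares were 1.15%, 31.0%, 6.9% and 17.2%. A match is a description of letters and not a binding site. The 5 windows were 60.7% to 76.0% G or C, against a median of 52.7% over all promoters.

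Members of each enzyme class were called at 6 h of depolarization, and at 1 h none was. Falls outnumbered rises among the members in each culture, and they did so among all genes tested. In MGE KO cultures 4 of 70 members rose and 13 fell, where 4.84% of all 12378 genes rose and 12.3% fell. In MGE WT cultures 7 rose and 15 fell, where 9.53% of all genes rose and 15.7% fell. In CTX KO cultures 9 rose and 15 fell, where 11.3% rose and 24.9% fell, and in CTX WT cultures 6 rose and 20 fell, where 10.5% rose and 24.8% fell. The members' shares of 5.71%, 10%, 12.9% and 8.57% higher and 18.6%, 21.4%, 21.4% and 28.6% lower, in the same order of cultures, are read against those shares of all genes. The median change of the members was -0.05 in MGE KO, -0.04 in MGE WT, -0.21 in CTX KO and -0.26 in CTX WT, beside -0.07, -0.05, -0.11 and -0.10 over all genes. Cyclic loess between arrays was also used, and no share of all genes is given here for it. With it 10 members rose and 13 fell in MGE WT, and 9 rose and 17 fell in CTX WT. The median change over all genes was then -0.01 in MGE WT and -0.05 in CTX WT, so these counts do not show a shift particular to the members. Single arrays moved the counts made without loess, and with them the share of all genes called. In MGE WT 36 members were called without replicate 1 at 0 h, where 42.4% of all genes were, and 8 without replicate 2 at 0 h, where 11.1% were. There 9 were called without replicate 1 at 6 h, where 8.91% of all genes were, and 13 without replicate 2 at 6 h, where 18.6% were. In MGE KO 7 were called without replicate 1 at 0 h or at 6 h, beside 8.14% and 8.5% of all genes, and 6 without replicate 2 at 6 h, beside 9.72%. In CTX WT 16 were called without replicate 2 at 0 h, beside 24.6% of all genes.

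Across the 4 cultures 41 of 70 members (58.6%) were called at 6 h in at least 1 and 29 in none, where 51% of all genes were called in at least 1. Dnmt1, Dnmt3b, Sirt5, Setd4 and Prmt3 fell in all 4, which is 7.14% of the members, where 7.24% of all genes did. Hdac5 and Kdm2a rose in all 4, which is 2.86% of the members, where 2.2% of all genes did. Sirt4 was the 1 member called in both directions, as 0.84% of all genes were. In these cultures fewer cells of a type and less RNA per cell cannot be told apart. At 6 h 4.84% of all genes rose and 12.3% fell in MGE KO, and 9.53% and 15.7% in MGE WT. In CTX KO 11.3% rose and 24.9% fell, and in CTX WT 10.5% and 24.8%. A list of 55 tested marker genes covered neuron classes, progenitors, glia and vessels. Of these 0 were called in MGE KO at 6 h, and 1 rose and 1 fell in MGE WT. In CTX KO 7 markers rose and 3 fell, and in CTX WT 5 rose and 2 fell. Markers of cycling cells and progenitors made up 3 of those rises in CTX KO and 2 in CTX WT, of 11 tested. Their summed intensity was 19951 and 23378 in CTX KO and 20569 and 23966 in CTX WT at 6 h, against 11422 and 16115 in CTX KO and 12404 and 15508 in CTX WT at 0 h, and the part of this in the members' changes was not tested.

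**Figure D1:**
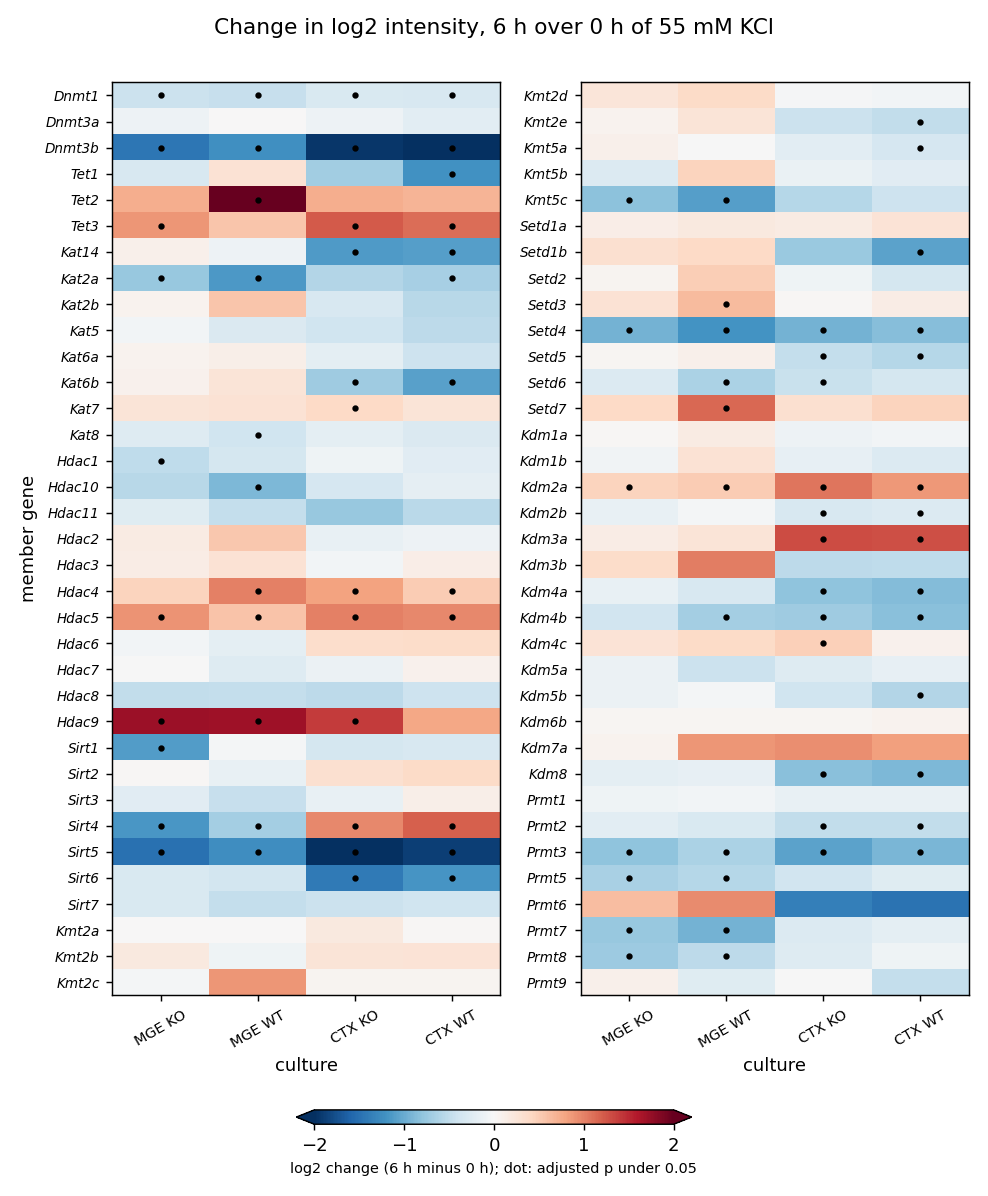
Change in log2 intensity at 6 h against 0 h of KCl for the 70 tested members (rows, by class) in MGE KO, MGE WT, CTX KO and CTX WT cultures (columns), as the difference of 2-array means; red is higher and blue lower at 6 h, colours saturate at 2 log2 units, and dots mark an adjusted p under 0.05. Dnmt3b, Sirt5, Prmt3, Setd4 and Dnmt1 are blue with dots in every column, Hdac5 and Kdm2a red, and Sirt4 is blue in MGE and red in CTX.

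Among the DNA methyltransferases the de novo enzyme gene Dnmt3b and the maintenance enzyme gene Dnmt1 fell in every culture, while Dnmt3a, the other de novo enzyme gene, was called in none. Dnmt3b was at 5.01 and 5.15 in MGE KO and 5.16 and 5.41 in MGE WT at 6 h, against 6.38 and 6.67 in MGE KO and 6.55 and 6.46 in MGE WT at 0 h. It was at 5.33 and 5.05 in CTX KO and 4.88 and 5.0 in CTX WT at 6 h, against 7.07 and 7.21 in CTX KO and 7.06 and 7.21 in CTX WT at 0 h. No 6 h array reached any 0 h array of the same cell type. In CTX the 1 h arrays, at 6.81 to 6.99, already lay below the 0 h arrays, at 7.06 to 7.21, without a call. In MGE the 1 h arrays were at 6.25 to 6.39, against 6.38 to 6.67 at 0 h, also without a call. The changes were -1.44 ± 0.13 in MGE KO (adjusted p = 7.56e-06) and -1.22 ± 0.13 in MGE WT (adjusted p = 2.89e-05). In CTX they were -1.95 ± 0.13 in CTX KO (adjusted p = 1.58e-07) and -2.19 ± 0.13 in CTX WT (adjusted p = 6.94e-08). All 6 h values of Dnmt3b, and its MGE values at 0 and 1 h, were below the array medians. Dnmt3b passed the filter only through CTX arrays at 0 or 1 h, where it was highest, so its fall in CTX is not independent of that filter. Its second probe set was too dim to be tested.

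Dnmt1 was at 12.52 and 12.53 in MGE KO and 12.45 and 12.47 in MGE WT at 6 h, against 12.95 and 12.95 in MGE KO and 12.95 and 12.89 in MGE WT at 0 h. It was at 12.69 and 12.72 in CTX KO and 12.62 and 12.72 in CTX WT at 6 h, against 12.94 and 13.08 in CTX KO and 13.00 and 12.99 in CTX WT at 0 h. The groups did not overlap in either cell type, but the change was small, at -0.43 ± 0.08 in MGE KO (adjusted p = 0.00195) and -0.46 ± 0.08 in MGE WT (adjusted p = 0.00104). The CTX changes were -0.30 ± 0.08 in CTX KO (adjusted p = 0.00783) and -0.33 ± 0.08 in CTX WT (adjusted p = 0.00517). The call in CTX KO was lost without replicate 2 at 0 h (-0.23, adjusted p = 0.0988). Of its 2 other tested probe sets, both fell in MGE KO, 1 in MGE WT and neither in CTX. Dnmt3a lay at 11.93 to 12.37 on the MGE arrays and 12.14 to 12.52 on the CTX arrays.

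The Tet genes did not move as 1 group. Tet3 was at 10.06 and 9.67 in MGE KO and 10.05 and 9.97 in MGE WT at 6 h, against 9.19 and 8.79 in MGE KO and 9.11 and 9.79 in MGE WT at 0 h. It was at 9.99 and 9.5 in CTX KO and 10.06 and 9.31 in CTX WT at 6 h, against 8.53 and 8.50 in CTX KO and 8.68 and 8.47 in CTX WT at 0 h, above every 0 h and 1 h array of that cell type. The changes were 0.88 ± 0.27 in MGE KO (adjusted p = 0.0372) and 0.56 ± 0.27 in MGE WT (adjusted p = 0.14). For CTX they were 1.23 ± 0.27 in CTX KO (adjusted p = 0.00231) and 1.11 ± 0.27 in CTX WT (adjusted p = 0.00493), so Tet3 rose in 3 of the 4 cultures. The MGE KO call was lost when any 1 of its 4 arrays was left out (adjusted p of 0.0587 to 0.258). In CTX WT it was lost without replicate 1 at 6 h (adjusted p = 0.0712). Tet1 fell in CTX WT, by 1.21 ± 0.45 (adjusted p = 0.0485), a call lost when any 1 of its 4 arrays was left out (adjusted p of 0.0997 to 0.204) and with the replicate number as a block (adjusted p = 0.0572). Tet2 rose in MGE WT by 2.21 ± 0.75 (adjusted p = 0.0432), where the 0 h arrays read 10.53 and 7.16 and the 6 h arrays 11.24 and 10.87, and the call was lost without the lower 0 h array, which is replicate 2, or either 6 h array (adjusted p of 0.0921 to 0.608), and with the replicate number as a block (adjusted p = 0.051). The second Tet2 probe set rose by 1.55 in CTX KO and 1.34 in CTX WT (adjusted p = 0.000381 and 0.00128), where the chosen one changed by 0.72 and 0.68 and was not called.

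Of the acetyltransferases no member rose except Kat7, called in CTX KO at 0.40 ± 0.13 (adjusted p = 0.0286). That call was lost when any 1 of its 4 arrays was left out (adjusted p of 0.0567 to 0.167), and in the other cultures Kat7 changed by 0.26 ± 0.13 in MGE KO, 0.29 ± 0.13 in MGE WT and 0.25 ± 0.13 in CTX WT. Kat2a, the acetyltransferase of the SAGA and ATAC complexes, was at 9.77 and 9.52 in MGE KO and 9.84 and 10.06 in MGE WT at 6 h, against 10.65 and 10.16 in MGE KO and 10.74 and 11.45 in MGE WT at 0 h. It was at 9.75 and 9.79 in CTX KO and 9.76 and 9.74 in CTX WT at 6 h, against 10.39 and 10.31 in CTX KO and 10.48 and 10.34 in CTX WT at 0 h. All 6 h arrays lay below all 0 h arrays of the same culture, with changes of -0.76 ± 0.23 in MGE KO (adjusted p = 0.038) and -1.15 ± 0.23 in MGE WT (adjusted p = 0.00302). Those in CTX were -0.58 ± 0.23 in CTX KO (adjusted p = 0.0685) and -0.66 ± 0.23 in CTX WT (adjusted p = 0.0403), so that Kat2a fell in 3 cultures. The MGE KO call was lost without replicate 1 at 0 h (-0.51, adjusted p = 0.331), without replicate 1 at 6 h (-0.89, adjusted p = 0.0837) or without replicate 2 at 6 h (-0.63, adjusted p = 0.221). The MGE WT call was lost without replicate 2 at 0 h (-0.80, adjusted p = 0.0516). In CTX WT the call was lost without replicate 1 at 0 h (-0.59, adjusted p = 0.173), without replicate 1 at 6 h (-0.67, adjusted p = 0.107), without replicate 2 at 0 h (-0.73, adjusted p = 0.0926) or without replicate 2 at 6 h (-0.65, adjusted p = 0.116). Kat14, a subunit of the ATAC complex, fell in CTX cultures, with changes of -1.13 ± 0.32 in CTX KO (adjusted p = 0.0123) and -1.10 ± 0.32 in CTX WT (adjusted p = 0.0155), and its MGE changes were 0.10 ± 0.32 in MGE KO and -0.11 ± 0.32 in MGE WT. The CTX KO call was lost without replicate 1 at 0 h or replicate 2 at 6 h (adjusted p of 0.077 to 0.174). In CTX WT it was lost without replicate 1 at 0 h or replicate 2 at 6 h (adjusted p of 0.118 to 0.216). Kat8, known for acetylating histone tails in dosage compensation in flies, fell in MGE WT, by 0.40 ± 0.11 (adjusted p = 0.0183), a call lost without replicate 1 at 6 h, replicate 2 at 0 h or replicate 2 at 6 h (adjusted p of 0.0633 to 0.172). Kat2b, Kat5 and Kat6a were not called in any culture.

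The class IIa deacetylases rose where they moved. Hdac5 was at 12.07 and 11.80 in MGE KO and 12.10 and 12.05 in MGE WT at 6 h, against 11.30 and 10.77 in MGE KO and 11.37 and 11.63 in MGE WT at 0 h. It was at 11.52 and 11.41 in CTX KO and 11.43 and 11.50 in CTX WT at 6 h, against 10.49 and 10.43 in CTX KO and 10.59 and 10.40 in CTX WT at 0 h. The changes were 0.90 ± 0.17 in MGE KO (adjusted p = 0.00187) and 0.57 ± 0.17 in MGE WT (adjusted p = 0.0218). In CTX they were 1.00 ± 0.17 in CTX KO (adjusted p = 0.000283) and 0.97 ± 0.17 in CTX WT (adjusted p = 0.000403). The 6 h arrays lay above the 0 h arrays within each culture. The MGE WT call was lost without replicate 1 at 0 h (0.44, adjusted p = 0.088), without replicate 1 at 6 h (0.55, adjusted p = 0.13) or without replicate 2 at 6 h (0.60, adjusted p = 0.0648).

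Hdac4 was at 11.07 and 10.84 in MGE KO and 11.64 and 11.47 in MGE WT at 6 h, against 10.59 and 10.44 in MGE KO and 10.60 and 10.48 in MGE WT at 0 h. It was at 11.93 and 11.49 in CTX KO and 11.79 and 11.39 in CTX WT at 6 h, against 10.96 and 10.86 in CTX KO and 11.21 and 10.96 in CTX WT at 0 h. Its changes were 0.44 ± 0.17 in MGE KO (adjusted p = 0.0852) and 1.01 ± 0.17 in MGE WT (adjusted p = 0.000713). The CTX changes were 0.80 ± 0.17 in CTX KO (adjusted p = 0.00154) and 0.51 ± 0.17 in CTX WT (adjusted p = 0.0271), so that it rose in 3 cultures. The CTX WT call was lost without replicate 1 at 6 h (0.31, adjusted p = 0.24) or without replicate 2 at 0 h (0.38, adjusted p = 0.2). Its 2 other probe sets rose in CTX KO and CTX WT and were not called in MGE. Hdac9 rose by 1.72 ± 0.51 in MGE KO, 1.69 ± 0.51 in MGE WT and 1.40 ± 0.51 in CTX KO (adjusted p = 0.0325, 0.0266 and 0.045). The MGE KO call was lost when any 1 of its 4 arrays was left out (adjusted p of 0.0855 to 0.174). In MGE WT it was lost without replicate 1 at 6 h, replicate 2 at 0 h or replicate 2 at 6 h (adjusted p of 0.0545 to 0.229). In CTX KO it was lost without replicate 1 at 0 h, replicate 1 at 6 h or replicate 2 at 0 h (adjusted p of 0.128 to 0.339). In CTX WT the 2 arrays of Hdac9 at 6 h read 12.05 and 9.84, with 10.20 and 10.13 at 0 h, and the change of 0.78 ± 0.51 was not called (adjusted p = 0.273). Hdac7, the remaining class IIa gene, was called in none. Among the class I and IIb genes Hdac1 fell in MGE KO by 0.51 ± 0.15 (adjusted p = 0.0277) and Hdac10 in MGE WT by 0.90 ± 0.20 (adjusted p = 0.00563). The Hdac1 call was lost when any 1 of its 4 arrays was left out (adjusted p of 0.052 to 0.213). For Hdac10 the call was lost without replicate 1 at 6 h or replicate 2 at 0 h (adjusted p of 0.0877 to 0.0919). The genes Hdac2, Hdac3, Hdac6, Hdac8 and the class IV gene Hdac11 were not called.

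Among the sirtuins Sirt5 fell in every culture, and in MGE KO, MGE WT and CTX KO no other member had a larger fall. Sirt5, a mitochondrial enzyme that removes succinyl, malonyl and glutaryl groups from lysines, was at 7.87 and 7.86 in MGE KO and 7.97 and 8.17 in MGE WT at 6 h, against 9.27 and 9.44 in MGE KO and 9.34 and 9.30 in MGE WT at 0 h. It was at 7.44 and 7.63 in CTX KO and 7.45 and 8.25 in CTX WT at 6 h, against 9.58 and 9.56 in CTX KO and 9.65 and 9.81 in CTX WT at 0 h. Every 6 h array lay over 1 log2 unit below every 0 h array of the same cell type, and the 1 h arrays stayed between 9.19 and 9.73. The changes were -1.49 ± 0.20 in MGE KO (adjusted p = 0.000201) and -1.25 ± 0.20 in MGE WT (adjusted p = 0.000661). For CTX they were -2.03 ± 0.20 in CTX KO (adjusted p = 3.63e-06) and -1.89 ± 0.20 in CTX WT (adjusted p = 7.93e-06). A second probe set of Sirt5 fell by 1.72, 1.36, 1.96 and 1.70 in the same order of cultures and was called in each.

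Sirt1, the nuclear deacetylase, fell in MGE KO, by 1.11 ± 0.27 (adjusted p = 0.0116), a call lost without replicate 1 at 6 h, replicate 2 at 0 h or replicate 2 at 6 h (adjusted p of 0.052 to 0.108). Its MGE arrays read 8.06 and 8.16 in KO and 8.32 and 8.23 in WT at 6 h, against 8.98 and 9.46 in KO and 8.89 and 7.75 in WT at 0 h. Replicate 2 of MGE WT at 0 h was lower than all of the 6 h arrays. Sirt2, Sirt3 and Sirt7 were called in none of the 4 cultures.

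Among the Kmt and Setd genes Setd4 fell in all 4 cultures. Setd4 was at 8.12 and 8.13 in MGE KO and 8.39 and 8.17 in MGE WT at 6 h, against 9.25 and 8.88 in MGE KO and 9.24 and 9.72 in MGE WT at 0 h. It was at 8.06 and 7.29 in CTX KO and 7.94 and 7.41 in CTX WT at 6 h, against 8.53 and 8.71 in CTX KO and 8.60 and 8.45 in CTX WT at 0 h. The changes were -0.94 ± 0.26 in MGE KO (adjusted p = 0.022) and -1.19 ± 0.26 in MGE WT (adjusted p = 0.00443). Those in CTX were -0.94 ± 0.26 in CTX KO (adjusted p = 0.0105) and -0.85 ± 0.26 in CTX WT (adjusted p = 0.0192). The MGE KO call was lost without replicate 1 at 0 h (-0.75, adjusted p = 0.188), without replicate 1 at 6 h (-0.93, adjusted p = 0.106) or without replicate 2 at 6 h (-0.94, adjusted p = 0.0941). In MGE WT it was lost without replicate 2 at 0 h (-0.95, adjusted p = 0.0632). The CTX KO call was lost without replicate 2 at 0 h (-0.85, adjusted p = 0.0743) or without replicate 2 at 6 h (-0.56, adjusted p = 0.156). In CTX WT it was lost without replicate 1 at 0 h (-0.78, adjusted p = 0.105), without replicate 2 at 0 h (-0.92, adjusted p = 0.0557) or without replicate 2 at 6 h (-0.58, adjusted p = 0.17). A second Setd4 probe set fell in MGE KO and MGE WT by 0.93 and 0.86 and in CTX WT by 0.45, and was not called in CTX KO.

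Kmt5c, which methylates histone H4 in silent chromatin, changed by -0.57 ± 0.22 in CTX KO (adjusted p = 0.051) and -0.41 ± 0.22 in CTX WT (adjusted p = 0.167), without a call. It was called lower in MGE cultures, with changes of -0.81 ± 0.22 in MGE KO (adjusted p = 0.0174) and -1.10 ± 0.22 in MGE WT (adjusted p = 0.00233). The test of the difference between cell types did not call Kmt5c. In KO the call was lost without replicate 1 at 0 h, replicate 1 at 6 h or replicate 2 at 6 h (adjusted p of 0.0639 to 0.177). Setd6, known for methylating the NF-kappaB subunit RelA, fell in MGE WT by 0.64 ± 0.17 (adjusted p = 0.0138) and in CTX KO by 0.45 ± 0.17 (adjusted p = 0.0484). The MGE WT call was lost without replicate 1 at 6 h or replicate 2 at 0 h (adjusted p of 0.124 to 0.133). In CTX KO it was lost when any 1 of its 4 arrays was left out (adjusted p of 0.0599 to 0.257). Setd3 and Setd7 rose in MGE WT, by 0.63 ± 0.15 and 1.15 ± 0.36 (adjusted p = 0.00677 and 0.0321). The Setd3 call was lost without replicate 1 at 6 h or replicate 2 at 0 h (adjusted p of 0.0682 to 0.097). For Setd7 the call was lost without replicate 1 at 6 h, replicate 2 at 0 h or replicate 2 at 6 h (adjusted p of 0.0796 to 0.432). In MGE KO they changed by 0.28 ± 0.15 (adjusted p = 0.229) and 0.40 ± 0.36 (adjusted p = 0.55). Neither was called there. Setd7 changed by 0.31 ± 0.36 in CTX KO and 0.44 ± 0.36 in CTX WT, also without a call. In CTX WT Kmt2e, Kmt5a and Setd1b fell, by 0.49 ± 0.16, 0.34 ± 0.08 and 1.07 ± 0.34 (adjusted p = 0.0287, 0.0052 and 0.0228), and another Kmt2e probe set was called in the opposite direction. In CTX KO Kmt2e changed by -0.43 ± 0.16 (adjusted p = 0.0506), Kmt5a by -0.22 ± 0.08 (adjusted p = 0.0546) and Setd1b by -0.74 ± 0.34 (adjusted p = 0.105). With the replicate number as a block Kmt5a was called in CTX KO too (adjusted p = 0.0443). The test of the difference in response between KO and WT called none of these 5 members. The Kmt2e call in CTX WT was lost without replicate 1 at 0 h, replicate 2 at 0 h or replicate 2 at 6 h (adjusted p of 0.0503 to 0.178). The Setd1b call was lost without replicate 1 at 0 h, replicate 2 at 0 h or replicate 2 at 6 h (adjusted p of 0.0718 to 0.127). The large trithorax-type genes Kmt2a, Kmt2b, Kmt2c and Kmt2d, together with Kmt5b, Setd1a and Setd2, were called in none.

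The lysine demethylases changed in both directions. Kdm2a, a CpG-binding demethylase, was at 10.68 and 10.62 in MGE KO and 10.52 and 10.39 in MGE WT at 6 h, against 10.10 and 10.31 in MGE KO and 10.15 and 9.75 in MGE WT at 0 h. It was at 11.75 and 11.70 in CTX KO and 11.44 and 11.45 in CTX WT at 6 h, against 10.55 and 10.74 in CTX KO and 10.57 and 10.60 in CTX WT at 0 h. The changes were 0.45 ± 0.13 in MGE KO (adjusted p = 0.0333) and 0.50 ± 0.13 in MGE WT (adjusted p = 0.0144). In CTX they were 1.08 ± 0.13 in CTX KO (adjusted p = 2.49e-05) and 0.86 ± 0.13 in CTX WT (adjusted p = 0.000181). The 6 h arrays stood above the 0 h arrays in each culture. The MGE KO call was lost without replicate 1 at 0 h (0.34, adjusted p = 0.263), without replicate 1 at 6 h (0.42, adjusted p = 0.172) or without replicate 2 at 6 h (0.48, adjusted p = 0.105). In MGE WT it was lost without replicate 1 at 6 h (0.44, adjusted p = 0.132) or without replicate 2 at 0 h (0.31, adjusted p = 0.189). Of its 2 other tested probe sets, both rose in CTX KO and CTX WT and neither was called in MGE. Its relative Kdm2b changed by -0.14 ± 0.10 in MGE KO and -0.04 ± 0.10 in MGE WT, without a call. In CTX cultures Kdm2b fell, with changes of -0.32 ± 0.10 in CTX KO (adjusted p = 0.0188) and -0.27 ± 0.10 in CTX WT (adjusted p = 0.0399). The test of the difference between cell types did not call it. The KO call was lost without replicate 1 at 0 h, replicate 1 at 6 h or replicate 2 at 0 h (adjusted p of 0.0563 to 0.175). In WT it was lost without replicate 1 at 6 h, replicate 2 at 0 h or replicate 2 at 6 h (adjusted p of 0.0641 to 0.259).

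Kdm4b, which removes methyl groups from histone H3, was at 10.25 and 9.96 in MGE KO and 10.18 and 10.22 in MGE WT at 6 h, against 10.67 and 10.30 in MGE KO and 10.70 and 11.05 in MGE WT at 0 h. It was at 9.67 and 8.97 in CTX KO and 9.56 and 9.02 in CTX WT at 6 h, against 10.03 and 10.05 in CTX KO and 10.10 and 10.14 in CTX WT at 0 h. It fell in 3 cultures, with changes of -0.38 ± 0.23 in MGE KO (adjusted p = 0.319) and -0.67 ± 0.23 in MGE WT (adjusted p = 0.046). The CTX changes were -0.71 ± 0.23 in CTX KO (adjusted p = 0.0258) and -0.83 ± 0.23 in CTX WT (adjusted p = 0.0118). The MGE WT call was lost without replicate 1 at 6 h (-0.65, adjusted p = 0.198), without replicate 2 at 0 h (-0.50, adjusted p = 0.313) or without replicate 2 at 6 h (-0.70, adjusted p = 0.113). In CTX KO it was lost without replicate 1 at 0 h (-0.72, adjusted p = 0.0912), without replicate 2 at 0 h (-0.70, adjusted p = 0.101) or without replicate 2 at 6 h (-0.36, adjusted p = 0.315). In CTX WT it was lost without replicate 2 at 0 h (-0.81, adjusted p = 0.0621) or without replicate 2 at 6 h (-0.56, adjusted p = 0.127). Kdm4a of the same family fell in CTX cultures, with changes of -0.81 ± 0.16 in CTX KO (adjusted p = 0.00094) and -0.86 ± 0.16 in CTX WT (adjusted p = 0.000585), with 6 h arrays at 9.82 to 10.21 and 0 h arrays at 10.75 to 11.11. Its changes of -0.15 ± 0.16 in MGE KO and -0.32 ± 0.16 in MGE WT were not called. The difference between cell types was called only with the replicate number as a block (adjusted p = 0.0268 in KO and 0.0462 in WT), against adjusted p = 0.092 and 0.117 without it. Kdm4c went the other way in CTX KO, by 0.47 ± 0.14 (adjusted p = 0.0128), a call lost without replicate 1 at 0 h or replicate 2 at 6 h (adjusted p of 0.0957 to 0.0979), and its change of 0.09 ± 0.14 in CTX WT was not called. Kdm8 changed by -0.20 ± 0.31 in MGE KO and -0.16 ± 0.31 in MGE WT, without a call. It fell in CTX KO and CTX WT by 0.83 ± 0.31 and 0.90 ± 0.31 (adjusted p = 0.0475 and 0.0338), and the test of the difference between cell types did not call it. The KO call was lost without replicate 1 at 0 h, replicate 2 at 0 h or replicate 2 at 6 h (adjusted p of 0.118 to 0.499). In WT it was lost without replicate 1 at 0 h, replicate 2 at 0 h or replicate 2 at 6 h (adjusted p of 0.0807 to 0.393).

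Kdm5b fell in CTX WT by 0.59 ± 0.17 (adjusted p = 0.0153), while 2 of its other probe sets were called in the opposite direction. The call was lost without replicate 1 at 0 h, replicate 2 at 0 h or replicate 2 at 6 h (adjusted p of 0.0543 to 0.209). Kdm6b, another histone H3 demethylase gene, lay at 12.19 to 12.63 on the MGE arrays and 13.16 to 13.39 on the CTX arrays, and its other 2 probe sets were below the median on every array. Kdm1a, Kdm1b, Kdm3b, Kdm5a and Kdm7a were called in none.

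Every call of an arginine methyltransferase at 6 h was a fall. Prmt3, a cytosolic enzyme known for methylating a ribosomal protein, was at 11.07 and 11.18 in MGE KO and 11.15 and 11.14 in MGE WT at 6 h, against 11.85 and 11.99 in MGE KO and 11.79 and 11.76 in MGE WT at 0 h. It was at 10.97 and 10.99 in CTX KO and 10.90 and 11.26 in CTX WT at 6 h, against 12.04 and 12.05 in CTX KO and 12.03 and 11.97 in CTX WT at 0 h. All 6 h arrays lay below all 0 h and 1 h arrays of either cell type, with changes of -0.80 ± 0.12 in MGE KO (adjusted p = 0.000348) and -0.63 ± 0.12 in MGE WT (adjusted p = 0.00162). For CTX they were -1.06 ± 0.12 in CTX KO (adjusted p = 7.92e-06) and -0.92 ± 0.12 in CTX WT (adjusted p = 3.15e-05). A second Prmt3 probe set fell by 2.04, 1.61, 2.24 and 2.13 in the same order of cultures and was called in each.

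Prmt5, which makes symmetric dimethylarginine, fell in MGE cultures, with changes of -0.65 ± 0.16 in MGE KO (adjusted p = 0.0128) and -0.57 ± 0.16 in MGE WT (adjusted p = 0.0198). Prmt7, which makes monomethylarginine, fell there too, with changes of -0.76 ± 0.21 in MGE KO (adjusted p = 0.0229) and -0.95 ± 0.21 in MGE WT (adjusted p = 0.00509), and the brain enzyme gene Prmt8, with changes of -0.73 ± 0.17 in MGE KO (adjusted p = 0.00886) and -0.52 ± 0.17 in MGE WT (adjusted p = 0.0374). In MGE KO the Prmt5 call was lost without replicate 1 at 0 h, replicate 1 at 6 h or replicate 2 at 6 h (adjusted p of 0.0652 to 0.0995). For Prmt7 it was lost without replicate 1 at 0 h, replicate 1 at 6 h or replicate 2 at 6 h (adjusted p of 0.0561 to 0.197). For Prmt8 the call was lost without replicate 1 at 0 h or replicate 2 at 6 h (adjusted p of 0.0851 to 0.124). In MGE WT the Prmt5 call was lost without replicate 1 at 6 h, replicate 2 at 0 h or replicate 2 at 6 h (adjusted p of 0.0531 to 0.195). For Prmt7 it was lost without replicate 2 at 0 h (adjusted p = 0.0832). For Prmt8 the call was lost without replicate 1 at 6 h, replicate 2 at 0 h or replicate 2 at 6 h (adjusted p of 0.121 to 0.219). None of these 3 was called in CTX cultures, where their changes ran from -0.39 to -0.09, and in the test of the difference between cell types they were not called either. Prmt2 changed by -0.21 ± 0.13 in MGE KO (adjusted p = 0.308) and -0.31 ± 0.13 in MGE WT (adjusted p = 0.0839), without a call. It was called lower in CTX cultures, with changes of -0.49 ± 0.13 in CTX KO (adjusted p = 0.00646) and -0.49 ± 0.13 in CTX WT (adjusted p = 0.0074). The test of the difference between cell types did not call Prmt2. The KO call was lost without replicate 1 at 6 h (adjusted p = 0.0675). In WT it was lost without replicate 1 at 6 h (adjusted p = 0.0926). Prmt1, Prmt6 and Prmt9 were called in none. Prmt6 changed by 0.61 in MGE KO, 0.95 in MGE WT, -1.37 in CTX KO and -1.48 in CTX WT.

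Other settings ended some of these calls. With the mean of all probe sets of a gene the calls were lost for Hdac9 and Prmt7 in MGE KO (adjusted p of 0.117 to 0.259), Hdac9 and Prmt7 in MGE WT (adjusted p of 0.11 to 0.16) and Setd5 and Setd6 in CTX KO (adjusted p of 0.187 to 0.269). In CTX WT it ended those of Kat2a, Kdm5b, Kmt2e, Kmt5a and Setd5, where Kdm5b then changed by 0.16. Cyclic loess ended those of Hdac1 in MGE KO (adjusted p = 0.0606), Kdm4b, Prmt8 and Sirt4 in MGE WT (adjusted p of 0.0593 to 0.13), Kdm8 and Setd6 in CTX KO (adjusted p of 0.072 to 0.0799) and Kat2a, Kdm8 and Tet1 in CTX WT (adjusted p of 0.0531 to 0.086). A fit of 1 cell type ended those of Kat2a, Kdm2a, Prmt7, Sirt1 and Tet3 in MGE KO (adjusted p of 0.0523 to 0.137) and Hdac5, Kdm2a, Setd7, Sirt4 and Tet2 in MGE WT (adjusted p of 0.0683 to 0.156). In CTX it ended those of Hdac9, Kat7 and Kdm8 in CTX KO (adjusted p of 0.057 to 0.119) and Hdac4, Kat14, Kdm2b and Kdm8 in CTX WT (adjusted p of 0.0505 to 0.0953). Without the filter on low values the calls lost were Kdm4b and Tet2 in MGE WT (adjusted p of 0.0536 to 0.0573), Hdac9, Kdm8 and Setd6 in CTX KO (adjusted p of 0.0567 to 0.0614) and Kat2a, Kdm2b and Tet1 in CTX WT (adjusted p of 0.0507 to 0.0606). The replicate block added calls of Hdac4 in MGE KO (adjusted p = 0.0214), Hdac3 and Sirt3 in MGE WT (adjusted p = 0.0409 and 0.0334) and Hdac6 in CTX WT (adjusted p = 0.0442). In CTX KO it added Hdac6, Hdac11 and Kmt5c (adjusted p = 0.0496, 0.028 and 0.0325).

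**Figure D2:**
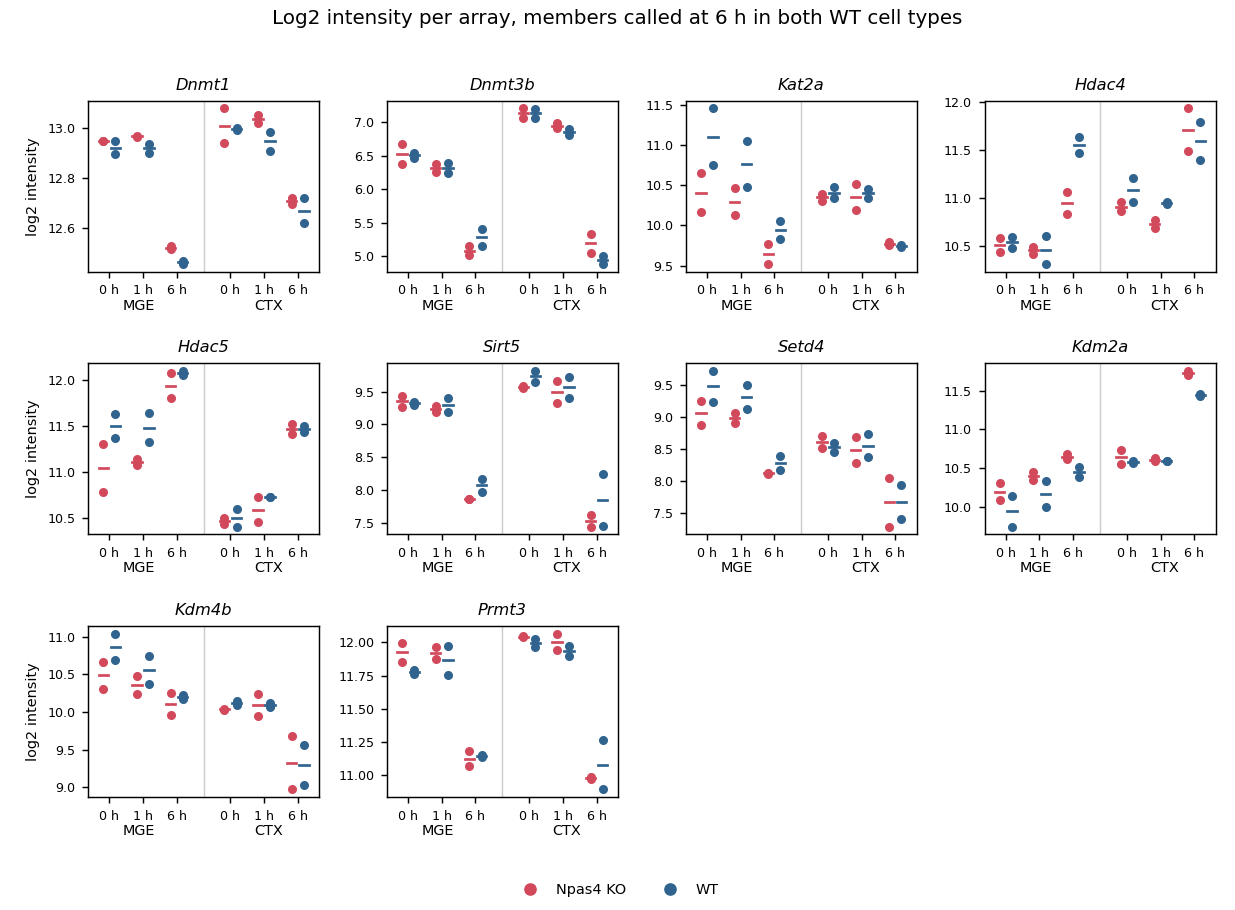
Log2 intensity on each array (points, with the mean of 2 arrays as a bar) at 0, 1 and 6 h of KCl in MGE and CTX cultures, Npas4 KO in red and WT in blue, for the 10 members called in the same direction at 6 h in both WT cell types. In Dnmt1, Dnmt3b, Sirt5 and Prmt3 the 6 h points lie below all 0 h and 1 h points of the same cell type, and in Kdm2a they lie above them in CTX.

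The change at 6 h differed between cell types for 6 members, with a limit for Dnmt3b that is given below. In WT cultures the MGE response exceeded the CTX response for 3 of 70 members, where 6.99% of all genes did, and fell short of it for 2, where 3.92% did. In KO cultures the counts were 1 and 2, where 4.46% and 2.88% of all genes were called. Without replicate 1 of MGE WT at 0 h 25 members were called in WT, where 31.5% of all genes were. Without replicate 1 of CTX WT at 6 h 19 were, where 20.2% of all genes were. In KO 6 were called without replicate 1 of CTX KO at 6 h, where 9.09% of all genes were.

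Sirt4, a mitochondrial sirtuin, moved in opposite directions. In MGE cultures it was at 8.06 and 7.96 in MGE KO and 8.02 and 7.97 in MGE WT at 6 h, against 9.11 and 9.24 in MGE KO and 9.13 and 8.21 in MGE WT at 0 h. In CTX cultures it was at 9.83 and 9.91 in CTX KO and 10.14 and 10.08 in CTX WT at 6 h, against 9.00 and 8.83 in CTX KO and 9.06 and 8.79 in CTX WT at 0 h. The changes were -1.16 ± 0.22 in MGE KO (adjusted p = 0.00184) and -0.67 ± 0.22 in MGE WT (adjusted p = 0.034). Those in CTX were 0.95 ± 0.22 in CTX KO (adjusted p = 0.00289) and 1.19 ± 0.22 in CTX WT (adjusted p = 0.000603). The 6 h arrays of the cell types did not overlap, at 7.96 to 8.06 in MGE and 9.83 to 10.14 in CTX, while those at 0 h overlapped. The MGE change minus the CTX change was -2.12 ± 0.30 (adjusted p = 0.00105) in KO and -1.86 ± 0.30 (adjusted p = 0.00213) in WT. The MGE WT call was lost without replicate 1 at 0 h (-0.21, adjusted p = 0.302), without replicate 1 at 6 h (-0.70, adjusted p = 0.136) or without replicate 2 at 6 h (-0.65, adjusted p = 0.113), while the difference between cell types was called in every one of these fits.

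Kdm3a, a demethylase of histone H3 lysine that also acts downstream of hypoxia signals, rose in CTX cultures. It was at 11.63 and 11.98 in CTX KO and 11.66 and 11.94 in CTX WT at 6 h, against 10.46 and 10.55 in CTX KO and 10.49 and 10.54 in CTX WT at 0 h. In MGE cultures it was at 10.62 and 10.73 in MGE KO and 10.81 and 10.80 in MGE WT at 6 h, against 10.47 and 10.58 in MGE KO and 10.53 and 10.57 in MGE WT at 0 h. The CTX changes were 1.30 ± 0.12 in CTX KO (adjusted p = 1.98e-06) and 1.29 ± 0.12 in CTX WT (adjusted p = 2.67e-06), and the MGE changes of 0.15 ± 0.12 in MGE KO (adjusted p = 0.507) and 0.25 ± 0.12 in MGE WT (adjusted p = 0.137) were not called. The MGE change minus the CTX change was -1.16 ± 0.17 (adjusted p = 0.00125) in KO and -1.03 ± 0.17 (adjusted p = 0.00234) in WT. At 1 h the CTX arrays of Kdm3a, at 10.71 to 10.89, already lay above its 0 h arrays, at 10.46 to 10.55, without a call.

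Sirt6, a chromatin-bound deacetylase, fell in CTX cultures. It was at 9.87 and 9.07 in CTX KO and 9.96 and 9.53 in CTX WT at 6 h, against 11.03 and 10.73 in CTX KO and 11.13 and 10.72 in CTX WT at 0 h. In MGE cultures it was at 11.14 and 11.04 in MGE KO and 10.95 and 11.03 in MGE WT at 6 h, against 11.39 and 11.41 in MGE KO and 11.37 and 11.33 in MGE WT at 0 h. The CTX changes were -1.41 ± 0.21 in CTX KO (adjusted p = 0.000126) and -1.18 ± 0.21 in CTX WT (adjusted p = 0.000596), beside -0.31 ± 0.21 in MGE KO (adjusted p = 0.4) and -0.36 ± 0.21 in MGE WT (adjusted p = 0.226). The difference between cell types was 1.10 ± 0.30 (adjusted p = 0.0379) in KO, and 0.82 ± 0.30 (adjusted p = 0.0921) in WT, where it was called with the replicate number as a block (adjusted p = 0.0131). The KO call was lost when any array but replicate 1 of CTX KO at 6 h was left out, with adjusted p of 0.0598 to 0.147.

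Kat6b, an acetyltransferase of the MYST family, was at 11.21 and 10.85 in CTX KO and 10.86 and 10.62 in CTX WT at 6 h, against 11.75 and 11.74 in CTX KO and 11.71 and 11.94 in CTX WT at 0 h. In MGE cultures it was at 10.87 and 11.08 in MGE KO and 10.92 and 10.79 in MGE WT at 6 h, against 10.75 and 11.03 in MGE KO and 10.80 and 10.39 in MGE WT at 0 h. It fell in CTX, with changes of -0.71 ± 0.17 in CTX KO (adjusted p = 0.00346) and -1.08 ± 0.17 in CTX WT (adjusted p = 0.000146) and was not called in MGE, where the changes were 0.08 ± 0.17 in MGE KO and 0.26 ± 0.17 in MGE WT. The CTX KO call was lost without replicate 2 at 6 h (-0.53, adjusted p = 0.0528). The difference between cell types was 0.80 ± 0.23 (adjusted p = 0.0527) in KO and 1.34 ± 0.23 (adjusted p = 0.0031) in WT. With the block it was called in KO too (adjusted p = 0.0498).

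Setd5, a SET domain gene linked to intellectual disability in humans, fell in CTX cultures, with changes of -0.48 ± 0.11 in CTX KO (adjusted p = 0.00356) and -0.57 ± 0.11 in CTX WT (adjusted p = 0.0011), beside 0.03 ± 0.11 in MGE KO and 0.10 ± 0.11 in MGE WT. The difference between cell types was 0.51 ± 0.16 (adjusted p = 0.0658) in KO and 0.67 ± 0.16 (adjusted p = 0.0154) in WT. The WT difference was no longer called without replicate 2 of MGE WT at 0 h, replicate 1 of MGE WT at 6 h, or replicate 2 of CTX WT at 0 or 6 h, with adjusted p of 0.053 to 0.0729. A second Setd5 probe set rose in MGE WT by 0.84 (adjusted p = 0.0128) and was not called in CTX, and with the mean of all probe sets none of these Setd5 calls held. For Dnmt3b, described above, the difference was 0.51 ± 0.19 (adjusted p = 0.125) in KO and 0.97 ± 0.19 (adjusted p = 0.00536) in WT. Its 6 h arrays lay at 5.01 to 5.41 in MGE and 4.88 to 5.33 in CTX, below the array medians in both, and its 0 h arrays at 6.38 to 6.67 in MGE and 7.06 to 7.21 in CTX. A fall to so low a signal does not show how deep it was. Dnmt3b passed the filter only through CTX arrays at 0 or 1 h, so this difference between cell types is not independent of the filter either.

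**Figure D3:**
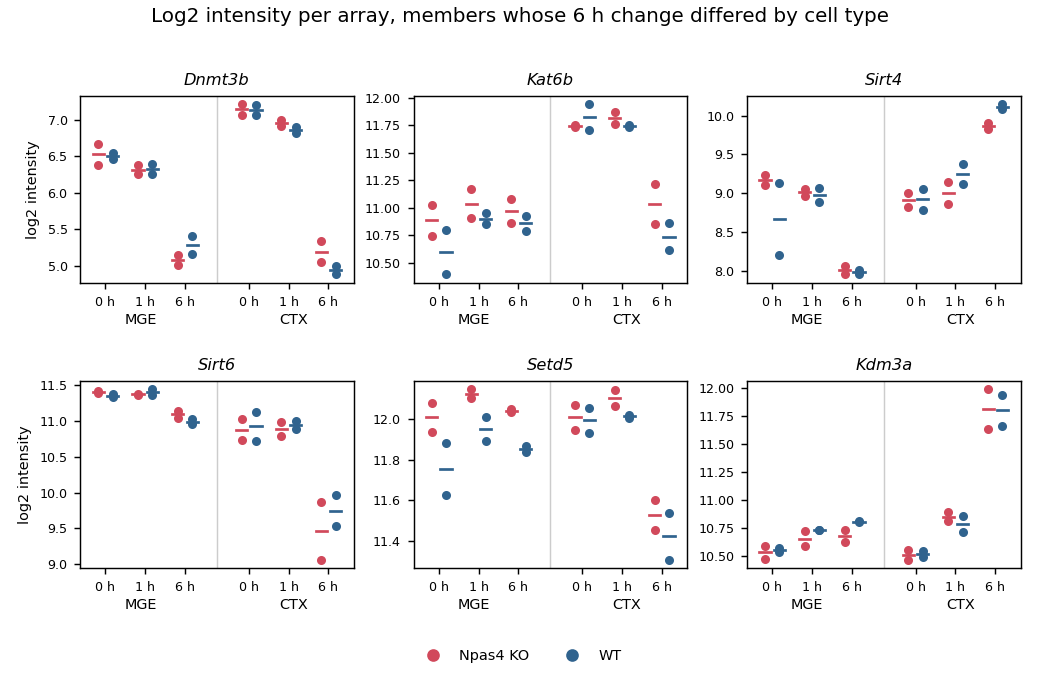
Log2 intensity on each array (points, with the mean of 2 arrays as a bar) at 0, 1 and 6 h of KCl in MGE and CTX cultures, Npas4 KO in red and WT in blue, for the 6 members whose 6 h change differed between cell types in at least 1 genotype. Sirt4 at 6 h is lowest in MGE and highest in CTX, and Kdm3a rises to 11.63 to 11.98 in CTX while its MGE points reach 10.81 at most.

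At 1 h of KCl 0 of 70 members were called in any of the 4 cultures, in MGE KO, MGE WT, CTX KO and CTX WT, where 0.444%, 0.574%, 1.1% and 0.864% of all genes were called. By limma 0, 1, 1 and 1 members had an unadjusted p under 0.05, Kdm7a in MGE WT and Kdm3a in both CTX genotypes. Of all 12378 genes 404, 661, 700 and 657 did, in the same order of cultures. The changes ran from -0.37 (Prmt6) to 0.57 (Tet2) in MGE KO, from -0.37 (Kat14) to 1.52 (Tet2) in MGE WT, from -0.35 (Prmt6) to 0.35 (Kmt2b) in CTX KO and from -0.56 (Prmt6) to 0.33 (Sirt4) in CTX WT. The 95% interval of the change lay within 1 log2 unit either way for 62, 56, 62 and 64 members in that order of cultures. Without replicate 1 of MGE WT at 0 h 15 members were called at 1 h in MGE WT, where 14.6% of all genes were.

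Loss of Npas4 was not accompanied by a called difference in any member. At 0, 1 and 6 h and averaged over times 0 of 70 members were called between KO and WT, where in MGE 0.0%, 0.0242%, 0.0323% and 0.0162% of all genes were called, and in CTX 0.0%, 0.00808%, 0.0485% and 0.00808%. By limma 21, 2, 3 and 30 members in MGE and 0, 0, 3 and 0 in CTX had an unadjusted p under 0.05. Of all 12378 genes 2598, 316, 364 and 3942 in MGE and 49, 80, 429 and 413 in CTX did. At 6 h the KO minus WT differences ran from -0.60 (Hdac4) to 0.88 (Tet1) in MGE and from -0.41 (Hdac11) to 0.69 (Hdac9) in CTX, and their 95% interval lay within 1 log2 unit for 60 and 61 members. Leaving out single WT arrays raised these counts, and the share of all genes called with them. Without replicate 1 of MGE WT at 0 h 28 members were called at 0 h, where 31.3% of all genes were, and 31 in the average over times, where 35.8% were. Without replicate 2 of MGE WT at 1 h 14 were called in the average over times, where 14.5% of all genes were. Without replicate 1 of CTX WT at 6 h 2 were called in CTX at 6 h, where 1.04% of all genes were.

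The response to 6 h of KCl was set beside its counterpart in the other genotype. The KO response minus the WT response was called for 0 of 70 members in MGE, where 0.0% of all genes were. In CTX it was called for 0, where 0.00808% of all genes were. By limma 2 members in MGE and 0 in CTX had an unadjusted p under 0.05. Of all 12378 genes 190 in MGE and 120 in CTX did. In CTX the difference ran from -0.26 (Sirt3) to 0.62 (Hdac9) and was under 0.5 log2 units for 68 of 70 members. In MGE it ran from -1.48 (Tet2) to 0.39 (Kat2a) and was under 0.5 for 61. The 95% interval of the difference lay within 1 log2 unit for 55 members in CTX and 48 in MGE. Across the 70 members the KO and WT changes correlated at r = 0.963 in CTX and 0.83 in MGE, a description over genes that share arrays and are not independent. Without replicate 1 of MGE WT at 0 h 6 members were called in MGE, where 5.6% of all genes were.

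**Figure D4:**
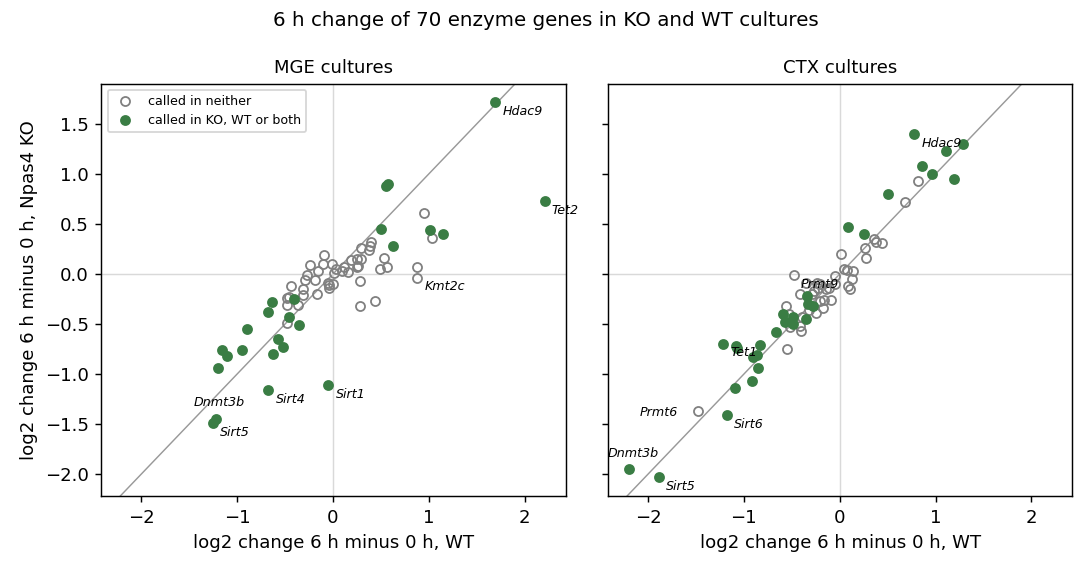
Log2 change at 6 h against 0 h of KCl in Npas4 KO (vertical axis) and in WT (horizontal axis) for the 70 tested members (points) in MGE cultures on the left and CTX cultures on the right; filled points were called in at least 1 genotype and the diagonal marks equal change. CTX points lie along the diagonal, and in MGE Tet2, Sirt1 and Kmt2c lie farthest from it.

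Between silenced MGE and CTX cultures members were called in both directions, as were many other genes. In KO cultures 12 of 70 members (17.1%) were higher in MGE and 15 (21.4%) lower, where 26.6% of all genes were higher and 20.4% lower. In WT cultures 22 (31.4%) were higher and 27 (38.6%) lower, where 34.7% of all genes were higher and 29.5% lower. The 27 members called in KO were called in the same direction in WT. Without replicate 2 of MGE WT at 0 h 31 were called in WT, where 44.8% of all genes were, and without replicate 1 of MGE KO at 0 h 17 in KO, where 30.4% were. Another called probe set pointed the opposite way for 11 of the 49 members called in WT (Dnmt3a, Kdm2a, Kdm5a, Kdm5b, Kmt2a, Kmt2c, Kmt2e, Kmt5b, Setd4, Tet1 and Tet2) and for 4 of the 27 called in KO, so 23 members had a call in both genotypes with no probe set against it. Other settings ended or added some calls at rest, as named in the section on processing below. Over all 12 arrays of each cell type, times and genotypes together, 9 members (12.9%) read higher on every MGE array than on any CTX array and 11 (15.7%) read lower, where 17.7% and 14.1% of all genes did.

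The sirtuin genes Sirt3 and Sirt2, the second mainly cytoplasmic, were higher in MGE. Sirt3 was at 11.77 and 11.58 in MGE KO and 11.83 and 12.19 in MGE WT, against 10.27 and 10.50 in CTX KO and 10.39 and 10.43 in CTX WT. The difference was 1.29 ± 0.21 in KO (adjusted p = 0.000253) and 1.60 ± 0.21 in WT (adjusted p = 2.6e-05). Sirt2 was at 12 and 11.73 in MGE KO and 12.01 and 12.31 in MGE WT, against 11.21 and 11.09 in CTX KO and 11.20 and 11.09 in CTX WT. Its difference was 0.72 ± 0.15 in KO (adjusted p = 0.0012) and 1.01 ± 0.15 in WT (adjusted p = 4.88e-05). For both genes the cell types did not overlap. Sirt1 went the other way, at 8.98 and 9.46 in MGE KO and 8.89 and 7.75 in MGE WT, against 10.82 and 10.71 in CTX KO and 10.64 and 10.66 in CTX WT. Its difference was -1.54 ± 0.27 in KO (adjusted p = 0.000451) and -2.33 ± 0.27 in WT (adjusted p = 9.56e-06).

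Among the deacetylases Hdac5 was higher in MGE, at 11.30 and 10.77 in MGE KO and 11.37 and 11.63 in MGE WT, against 10.49 and 10.43 in CTX KO and 10.59 and 10.40 in CTX WT, with a difference of 0.57 ± 0.17 in KO (adjusted p = 0.0118) and 1.00 ± 0.17 in WT (adjusted p = 0.000161). In KO this call was lost without replicate 1 of MGE KO or replicate 2 of CTX KO (adjusted p of 0.0702 to 0.19). Hdac11, a small deacetylase of neurons and glia, was at 11.14 and 10.84 in MGE KO and 11.16 and 11.55 in MGE WT, against 10.08 and 9.98 in CTX KO and 10.15 and 10.33 in CTX WT. It differed by 0.96 ± 0.33 in KO (adjusted p = 0.0283) and 1.12 ± 0.33 in WT (adjusted p = 0.00914). The KO call was lost without replicate 1 of MGE KO, replicate 1 of CTX KO or replicate 2 of CTX KO (adjusted p of 0.0779 to 0.156). Without replicate 2 of MGE WT the WT difference was 0.92 (adjusted p = 0.0823), and it was not called without replicate 1 of CTX WT either (adjusted p = 0.0516). Hdac1 was higher in MGE, by 1.10 ± 0.15 in KO (adjusted p = 5.03e-05) and 0.89 ± 0.15 in WT (adjusted p = 0.000153), and its close relative Hdac2 was lower, with differences of -1.33 ± 0.26 in KO (adjusted p = 0.000895) and -2.02 ± 0.26 in WT (adjusted p = 2.02e-05). Kat14 was at 11.12 and 10.86 in MGE KO and 11.14 and 11.77 in MGE WT, against 9.98 and 9.80 in CTX KO and 10.09 and 9.72 in CTX WT, a difference of 1.10 ± 0.32 in KO (adjusted p = 0.012) and 1.55 ± 0.32 in WT (adjusted p = 0.000816), and its second tested probe set differed in the same direction in WT. Its KO call was lost without replicate 1 of MGE KO or replicate 2 of CTX KO (adjusted p of 0.077 to 0.0832).

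The demethylase genes Kdm3b and Kdm7a were lower in MGE. Kdm3b was at 8.22 and 9.16 in MGE KO and 8.33 and 6.33 in MGE WT, against 10.99 and 11.40 in CTX KO and 10.91 and 10.93 in CTX WT, and differed by -2.51 ± 0.50 in KO (adjusted p = 0.00111) and -3.59 ± 0.50 in WT (adjusted p = 4.08e-05). Kdm7a was at 8.32 and 9.35 in MGE KO and 8.26 and 6.35 in MGE WT, against 10.69 and 10.93 in CTX KO and 10.56 and 10.80 in CTX WT, and differed by -1.97 ± 0.48 in KO (adjusted p = 0.004) and -3.37 ± 0.48 in WT (adjusted p = 4.49e-05). Without the lower MGE WT array, replicate 2, the WT differences were -2.59 (adjusted p = 0.000375) for Kdm3b and -2.42 (adjusted p = 0.000417) for Kdm7a. The KO call of Kdm7a was lost without replicate 1 of MGE KO (adjusted p = 0.062). The 2 brighter of the other tested Kdm7a probe sets differed by 0.06 and -0.03 and were not called. Kdm5a, a demethylase of the mark left by Kmt2 enzymes, was at 10.23 and 9.92 in MGE KO and 10.31 and 10.63 in MGE WT, against 8.95 and 8.70 in CTX KO and 8.91 and 8.88 in CTX WT, a difference of 1.25 ± 0.15 in KO (adjusted p = 2.26e-05) and 1.57 ± 0.15 in WT (adjusted p = 1.9e-06). Its other probe sets disagreed, with differences of 1.14, -1.0 and -2.89 in WT.

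Kmt2c, a methyltransferase of enhancers, was at 9.70 and 10.52 in MGE KO and 9.68 and 8.08 in MGE WT, against 12.32 and 12.37 in CTX KO and 12.29 and 12.23 in CTX WT. Its difference was -2.24 ± 0.39 in KO (adjusted p = 0.000406) and -3.37 ± 0.39 in WT (adjusted p = 8.49e-06), and -2.58 (adjusted p = 4.81e-05) in WT without the lower array. A second probe set of Kmt2c differed by -2.85 in WT and 2 others by 0.73 and 1.0. Tet2 was at 10.27 and 11.45 in MGE KO and 10.53 and 7.16 in MGE WT, against 12.01 and 11.96 in CTX KO and 11.94 and 11.85 in CTX WT, and Tet1 at 9.91 and 10.61 in MGE KO and 9.70 and 7.85 in MGE WT, against 10.74 and 10.98 in CTX KO and 10.82 and 11.12 in CTX WT. Both were called in WT, at -3.05 ± 0.75 in WT (adjusted p = 0.00273) and -2.19 ± 0.45 in WT (adjusted p = 0.000771), and neither in KO, at -1.12 and -0.60. Without the lower MGE WT array the WT differences were -1.36 (adjusted p = 0.0452) for Tet2 and -1.26 (adjusted p = 0.0123) for Tet1, and a second probe set of each was called higher in MGE, by 1.07 and 0.82.

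Markers of other cells also differed between the silenced cultures. Among all genes 26.6% were higher in MGE and 20.4% lower in KO, and 34.7% and 29.5% in WT. Of 11 markers of inhibitory neurons 11 were higher in MGE in KO and 10 in WT, and of 9 markers of excitatory neurons 7 and 8 were lower. Markers of cycling cells and progenitors were higher in MGE for 4 of 11 in each genotype and lower for 1 in KO and 2 in WT. Their summed intensity was 23094 and 29731 in MGE KO and 21495 and 25366 in MGE WT, against 11422 and 16115 in CTX KO and 12404 and 15508 in CTX WT. Astrocyte markers were higher for 3 of 7 in KO and 1 in WT, oligodendrocyte markers for 2 of 5 in each, and microglial markers for 2 and 3 of 6. The part of these cells in the members' differences was not tested.

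**Figure D5:**
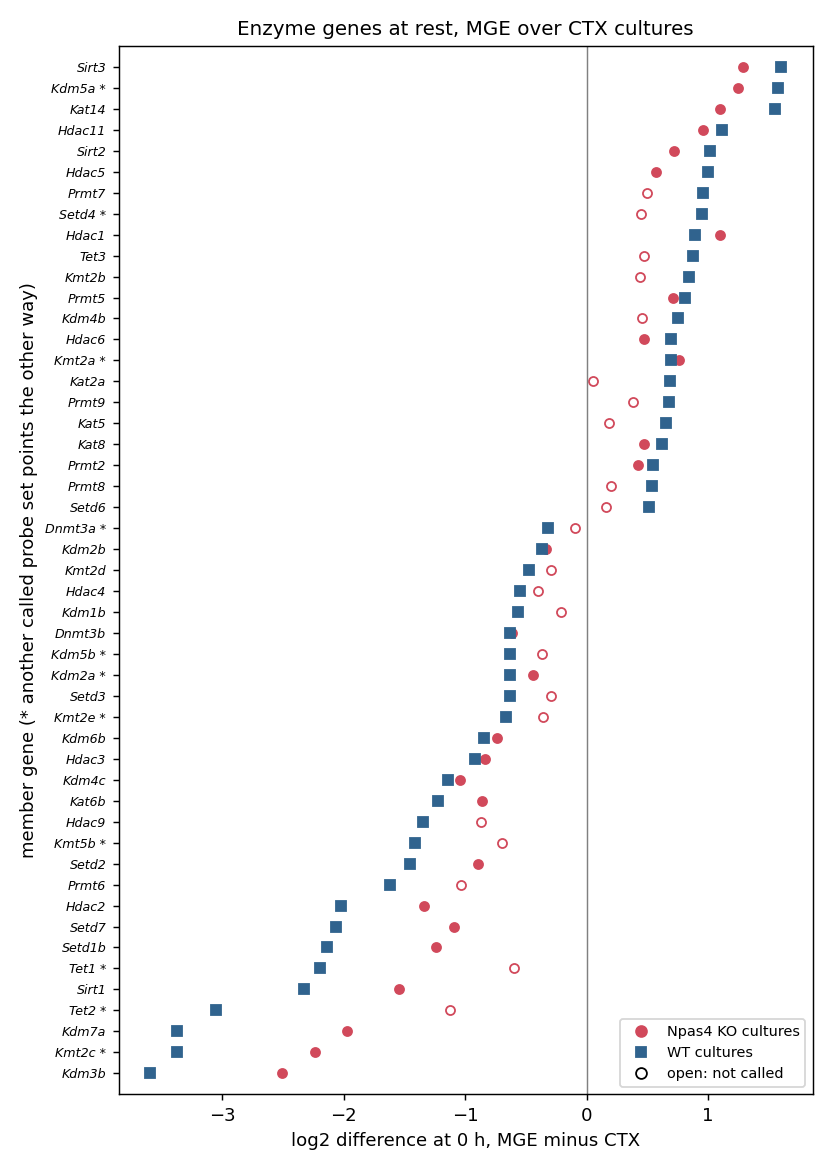
Difference in log2 intensity at 0 h, MGE minus CTX, in Npas4 KO cultures (red circles) and WT cultures (blue squares) for the 49 members called in WT, which include the 27 called in KO; filled symbols were called and an asterisk marks a member with another called probe set pointing the other way. Kdm3b, Kmt2c, Kdm7a and Tet2 lie farthest to the left.

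Enzymes and partners outside the naming rule were read from lists drawn from general knowledge, with earlier results of these data known. At 6 h 4.84% of all genes rose and 12.3% fell in MGE KO, and 9.53% and 15.7% in MGE WT. In CTX KO 11.3% rose and 24.9% fell, and in CTX WT 10.5% and 24.8%. In all 4 cultures 2.2% of all genes rose and 7.24% fell. Of 16 other histone methyltransferases 1 rose and 2 fell in MGE KO, 2 and 4 in MGE WT, and 5 and 4 in both CTX KO and CTX WT. Dot1l, the methyltransferase of the histone core, rose in all 4 cultures, by 1.11 in MGE KO, 1.18 in MGE WT, 1.31 in CTX KO and 1.39 in CTX WT, and Nsd1 fell, by 0.64, 0.52, 0.84 and 0.97. Of 9 other acetyltransferases 0 rose and 1 fell in MGE KO, 2 and 1 in MGE WT, 3 and 2 in CTX KO and 2 and 3 in CTX WT, with Elp3 falling in all 4. Of 11 other demethylases and jumonji proteins 2 rose and 2 fell in MGE KO, 2 and 1 in MGE WT, 3 and 3 in CTX KO and 3 and 4 in CTX WT. Jarid2 and Jmjd1c rose in all 4, by 0.74 to 0.96 and 0.33 to 0.98, and Riox2 fell by 1.84, 1.5, 1.71 and 1.39.

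Complex subunits and readers were counted in the same way, and the same shares of all genes apply. Of 19 subunits of deacetylase and demethylase complexes 0 rose and 2 fell in MGE KO, 0 and 3 in MGE WT, 3 and 3 in CTX KO and 3 and 2 in CTX WT, and Rcor2, a partner of Kdm1a, fell in all 4, by 0.82, 1.07, 1.34 and 0.80. Of 12 methyltransferase complex subunits 1 rose and 0 fell in MGE KO, 2 and 0 in MGE WT, 1 and 2 in CTX KO and 1 and 3 in CTX WT. Of 11 methyl-DNA readers and repair genes 0 rose and 1 fell in MGE KO, 1 and 0 in MGE WT, 1 and 2 in CTX KO and 1 and 3 in CTX WT. As a scale for these changes, 10 rapid and 8 late activity genes had median changes at 6 h of 1.77 and 1.20 in MGE KO, 1.53 and 2.16 in MGE WT, 2.85 and 4.21 in CTX KO and 3.74 and 4.26 in CTX WT.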

How the data were processed

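RNA of 24 samples was measured on Affymetrix Mouse Genome arrays (100 ng of RNA, NuGEN Ovation V2 amplification, per the labels' protocols). The deposited values are linear intensities that the authors made with RMA, per the submitters' processing notes, with no version stated. Their log2 was taken here; the values had medians of 115 to 121 intensity units on every array. RMA corrects background and equalizes array distributions, so a change in total RNA is not seen.

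Of 45101 probe sets 34958 named 1 gene, 932 several and 9211 none in the platform annotation; the probe set with the highest mean stood for each gene. Tests used limma 3.58.1 in R 4.3.3 on 12 group means with 12 residual degrees of freedom, Benjamini-Hochberg adjustment over 12378 genes, and 22 comparisons. The number of arrays, 2 per group, limits the precision. The script was tested on simulated data.

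Members described array by array were those called at 6 h in the same direction in both WT cell types, those whose 6 h change differed between cell types, and the 6 with the largest difference at rest in each direction. The members and gene lists were chosen with earlier results of these data known. Alternatives were a replicate block, no filter, the mean of all probe sets, cyclic loess, a fit of 1 cell type, and leaving out each array. Repeat numbers are shared by the groups, and the labels do not say what they mark. Deviations of same-numbered arrays from their group means correlated at 0.11 to 0.71 in CTX, above 0.1 in all 15 pairs, and at -0.23 to 0.86 in MGE, above 0.1 in 13 of 15. Calls at 6 h that the block changes are therefore given beside the results. Other calls that it changes are given there or in the section on how the results depend on the processing.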

Additional observations from a re-analysis of the deposited data

Results flagged for a closer look

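The 6 h change differed between MGE and CTX cultures, by limma's test of the difference itself, for these members. In KO cultures the MGE change minus the CTX change was -2.12 ± 0.30 for Sirt4 (adjusted p = 0.00105), -1.16 ± 0.17 for Kdm3a (adjusted p = 0.00125) and 1.10 ± 0.30 for Sirt6 (adjusted p = 0.0379). In WT cultures it was -1.86 ± 0.30 for Sirt4 (adjusted p = 0.00213), -1.03 ± 0.17 for Kdm3a (adjusted p = 0.00234), 1.34 ± 0.23 for Kat6b (adjusted p = 0.0031), 0.97 ± 0.19 for Dnmt3b (adjusted p = 0.00536) and 0.67 ± 0.16 for Setd5 (adjusted p = 0.0154). Sirt4 and Kdm3a were called in both genotypes. For Dnmt3b the 6 h values were below the array medians in both cell types, so how deep it fell is not shown. It passed the filter only through CTX arrays at 0 or 1 h, so its difference is not independent of that filter. With the mean of all probe sets the Setd5 difference in WT was 0.60 and not called (adjusted p = 0.0595). The Setd5 call in WT and the Sirt6 call in KO were also lost in fits without certain single arrays, as given above.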

How the results depend on the processing

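Leaving out 1 array at a time leaves 1 array in a group, which is assumed to vary like the other groups. The number of members called then ran from 6 to 13 in MGE KO, 8 to 36 in MGE WT, 16 to 22 in CTX KO and 16 to 26 in CTX WT at 6 h, and from 0 to 15 in MGE WT at 1 h. Between KO and WT it ran from 0 to 28 in MGE at 0 h, 0 to 31 in MGE averaged over times and 0 to 2 in CTX at 6 h, and for the difference in 6 h response between genotypes from 0 to 6 in MGE. Between cell types at 0 h it ran from 17 to 26 in KO and 31 to 53 in WT, and for the cell type difference in 6 h response from 2 to 6 in KO and 4 to 25 in WT. With the mean of all probe sets of a gene 5 members in KO and 3 in WT were called for that difference. At rest in WT it ended the calls of Dnmt3a, Hdac9, Kdm5a, Kdm5b, Kmt2a, Kmt2d, Kmt5b, Prmt6, Prmt9, Setd4, Tet1 and Tet2 (adjusted p of 0.0595 to 0.876). Of these Dnmt3a, Kdm5a, Kmt2a, Kmt5b and Prmt9 reversed, to 0.21, -0.26, -0.30, 0.15 and -0.05. At rest in KO it ended those of Kdm5a, Kdm6b and Kmt2a (adjusted p of 0.0838 to 0.916). Cyclic loess turned the direction of 0 called members. With the replicate number as a block 8 members in WT and 5 in KO were called for the cell type difference in response, and at 6 h 18 were called in MGE KO, 23 in MGE WT, 28 in CTX KO and 26 in CTX WT. For that difference it added Kdm4a in KO (0.66, adjusted p = 0.0268) and Kdm4a and Kmt2e in WT (0.55 and 0.74, adjusted p = 0.0462 and 0.048), besides those given above. Between cell types at 0 h it added Hdac4 and Sirt6 in KO (adjusted p = 0.0158 and 0.00564). In WT it added Hdac7, Sirt5 and Sirt6 there (adjusted p = 0.0456, 0.0317 and 0.0123). Tet2 in MGE WT and Tet1 in CTX WT lost their 6 h calls under the block, and no other member's call was lost. The share of all genes called is given above for some of the fits without 1 array. For the other counts in this paragraph it is not given here, so they do not show a shift particular to the members. The causes of these shifts were not tested.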

Other observations

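Some members differed over 2-fold between the 2 arrays of a group. Prmt6 read 10.17 and 7.77 in CTX KO and 10.14 and 7.65 in CTX WT at 6 h, with replicate 1 the higher in both genotypes. Hdac9 read 12.19 and 11.08 in CTX KO and 12.05 and 9.84 in CTX WT at 6 h, again with replicate 1 the higher. Hdac11 went the other way in CTX WT at 6 h, at 9.08 and 10.30. In MGE WT at 0 h all 12 members that differed over 2-fold between arrays were higher in replicate 1.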
